A study of Mus musculus with 8 samples.

Results

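Collagens and laminins are the structural proteins of connective tissue and basement membranes, and their transcripts were described here in sorted midbrain dopaminergic neurons of the mouse embryo. The members are all genes whose symbol in the array's annotated table is a numbered collagen alpha chain or a numbered laminin alpha, beta or gamma chain. The rule took 52 of the 24088 genes named on the array, 41 collagens and 11 laminins, with 57 probes in that table. Where a gene had more than 1 probe there, the brightest stood for it.

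The cells came from the ventral midbrain of embryos at day E14.5 with the genotype Pitx3(Gfp/+), 1 Gfp allele at the locus of the dopaminergic transcription factor gene Pitx3. The Gfp-positive cells of 4 rostral and 4 caudal pools were collected by sorting after papain digestion, each pool from 5 to 7 embryos spread over litters. All groups carried the same allele, and no wild-type embryos were among the samples. Each pool, in Cy3, was hybridised on a 2-colour Agilent array against 1 common reference in Cy5, Gfp-negative cells pooled from the same specimens.

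Collagen chains form triple helices. Some build the banded fibrils of connective tissue (types I, II, III, V and XI) or the sheet-like network of basement membranes (type IV). The other classes are named below with their results. Laminins are cross-shaped trimers of an alpha, a beta and a gamma chain that start basement membrane assembly and bind integrins and dystroglycan at the cell surface. In the embryonic brain, basement membranes lie under the meninges and around blood vessels, and endothelial cells, pericytes, meningeal fibroblasts and radial glia are known sources of their chains.

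All values below are log2 ratios of a Gfp-positive pool over the Gfp-negative reference, so -1 means a level 2-fold lower in the sorted neurons. The sample channel detected 62.5% to 70.4% of the array's probes well above background, and the reference channel 54.0% to 63.5%. The dopaminergic identity of the pools was read from 12 marker genes, and 12 of 12 were higher than in the reference (median 3.49), Slc6a3, the dopamine transporter, by 5.98. Of the markers of other cell types, 10 of 10 tested pericyte genes, 9 of 10 endothelial genes, 10 of 10 radial glia genes and 8 of 9 meningeal fibroblast genes were lower, with medians of -3.32, -1.72, -3.32 and -1.23. Of 7 tested microglial genes, 0 passed the limma test in either direction, and 0 did at an unadjusted p below 0.05. The pericyte gene Rgs5 was not well above background in any pool. No dye was swapped, so a dye effect is part of each ratio to the reference, and p-values measure the spread between pools but not that of the reference, which is 1 sample. Rostral pool 2 stood apart from the other pools for several collagens, and those results are given with and without it.

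The sorted dopaminergic neurons held less collagen and laminin RNA than their Gfp-negative neighbours for most members that could be measured. Of 45 members tested, 32 were lower in the Gfp-positive cells and 5 were higher at an adjusted p below 0.05 (limma, Benjamini-Hochberg over 18658 genes), where 36.8% of all tested genes were lower and 34.6% were higher. At 2-fold or more, 26 members were lower and 1 was higher, against 9.71% and 3.37% of all tested genes. The median over the 45 members was -1.32, and that over all tested genes was -0.003. In 27 members the 8 ratios were all below 0, which held for 27.9% of all tested genes. Without rostral pool 2, 34 members were lower and 6 higher. A member entered this test if either channel was well above background on 4 of 8 arrays. The filter itself therefore favoured a difference in a member that passed only through the channel where it is bright. In such pools, fewer cells of a type and less RNA per cell cannot be told apart. The vascular, meningeal and glial markers were lower along with the members, and their part in the result was not tested.

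The size of a ratio is least certain where a signal is near background. Of the 45 tested members, 28 were well above background in both channels of all 8 arrays and 17 were not. In the scanner software's processed signals, the ratio of 10 members moved by over 1.5-fold, 9 of them among the 17. Those with a dim sample signal were further below the reference there: Col25a1 at -3.90, Col6a6 at -3.00, Col9a1 at -2.72, Col17a1 at -2.38, Col1a1 at -1.94, Col4a6 at -3.86 and Col5a3 at -3.67. Those with a dim reference signal, Col11a2 and Lama3, were further above it, at 1.96 and 1.34. Lamb2, well above background in both channels of all arrays, was at -3.20. Its sample signal was still low, with normalised log2 levels of 6.71 to 8.18 against 10.03 to 10.22 in the reference channel.

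**Figure D1:**
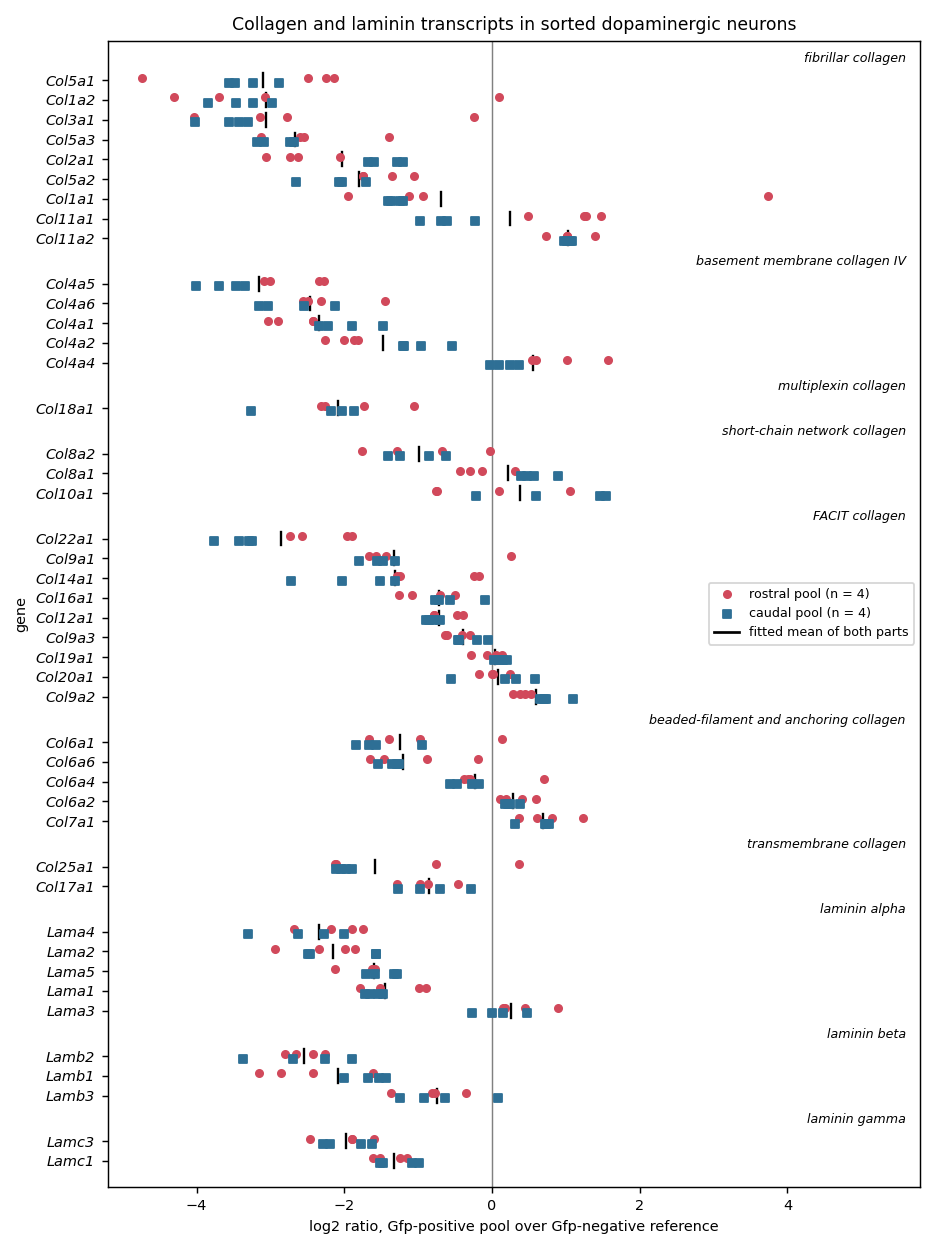
Log2 ratio of each Gfp-positive pool over the Gfp-negative reference for the tested collagens and laminins that are named here, grouped by class, with circles for the 4 rostral pools, squares for the 4 caudal pools and a black bar for the fitted mean. Most points lie left of 0; Col11a2 lies at 1.04, and the circle at 3.73 is Col1a1 in rostral pool 2.

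Among the fibrillar collagens, 9 of 11 were tested, and 6 were lower, 1 was higher and 2 did not pass the test. Col5a1, a chain of the type V collagen that nucleates fibrils, had ratios of -2.25, -2.49, -4.74 and -2.14 in rostral pools 1 to 4 and -3.23, -3.48, -3.56 and -2.88 in caudal pools 1 to 4. All 8 were below -2, and rostral pool 3 was lowest. The mean was -3.10 (SE 0.26, adjusted p = 2.77e-06), 8.55-fold lower. Its partners Col5a3 (-2.67, SE 0.16) and Col5a2 (-1.80, SE 0.12) were lower too. Col5a3 was at -2.55, -2.60, -3.13 and -1.40 in rostral pools and at -3.09, -3.18, -2.74 and -2.68 in caudal pools, all below 0.

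Col1a2, the second chain of type I collagen, was at -3.08, 0.10, -3.69 and -4.31 in rostral pools 1 to 4, against -3.85, -2.98, -3.47 and -3.24 in caudal pools. Col3a1, the type III chain of elastic connective tissue and vessel walls, was at -2.78, -0.24, -4.04 and -3.14 in rostral pools and at -4.02, -3.56, -3.30 and -3.43 in caudal pools. In both genes rostral pool 2 was the highest by far and the other 7 pools were at or below -2.78. Col1a2 averaged -3.07 (SE 0.40, adjusted p = 7.21e-05) and Col3a1 averaged -3.06 (SE 0.33, adjusted p = 2.04e-05). Without rostral pool 2 they were at -3.54 (SE 0.15) and -3.45 (SE 0.15).

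Col2a1, the cartilage collagen that is also made in the embryonic neural tube, was lower by 2.03 (SE 0.10, adjusted p = 5.03e-08), 4.09-fold. Col11a2, a chain of the type XI collagen that sits inside type II fibrils, was the member with the largest rise. Its ratios were 1.39, 1.01, 1.02 and 0.73 in rostral pools and 1.08, 1.02, 1.05 and 0.98 in caudal pools, all above 0. The mean was 1.04 (SE 0.07, adjusted p = 8.92e-07), 2.05-fold higher. Its reference signal was well above background on only 1 of 8 arrays, so the size of the ratio depends on how background is treated, and it was 1.96 in the scanner software's processed signals. The related chain Col11a1 did not pass the test against the reference (0.24, adjusted p = 0.0872), with rostral pools above and caudal pools below 0. Col24a1 and Col27a1 were below the detection limit set for the test.

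Of the 6 collagen IV chains, the network formers of basement membranes, 5 were tested, and 4 were lower, each by more than 2-fold. Col4a5 fell the most of all members. It was at -2.34, -3.09, -3.00 and -2.27 in rostral pools 1 to 4 and at -3.35, -4.01, -3.69 and -3.47 in caudal pools. All 8 pools were below -2, with a mean of -3.15 (SE 0.12, adjusted p = 7.69e-09), 8.88-fold lower. Its X-linked neighbour and partner chain Col4a6 was at -1.45, -2.32, -2.56 and -2.49 in rostral pools and at -2.55, -2.13, -3.03 and -3.16 in caudal pools, and averaged -2.46 (SE 0.15, adjusted p = 2.72e-07). This probe was well above background in 4 of 4 rostral pools but in 2 of 4 caudal pools. A second Col4a6 probe outside the annotated table, bright in all pools and references, was lower by less, at -0.79 (SE 0.05, adjusted p = 7.7e-07), with ratios from -0.89 to -0.72 in rostral and from -0.85 to -0.64 in caudal pools.

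Col4a1 and Col4a2 make up the most widespread collagen IV network, that of blood vessels included. Col4a1 was at -2.43, -2.43, -2.90 and -3.03 in rostral pools and at -1.90, -2.22, -1.47 and -2.34 in caudal pools, a mean of -2.34 (SE 0.11, adjusted p = 3.43e-08). Col4a2 averaged -1.48 (SE 0.08, adjusted p = 1.16e-07). The fifth chain tested, Col4a4, which with Col4a3 and Col4a5 forms the network of the kidney glomerulus, went the other way. It was at 0.54, 0.60, 1.57 and 1.01 in rostral pools and at 0.24, 0.37, -0.03 and 0.10 in caudal pools, a mean of 0.55 (SE 0.12, adjusted p = 0.00183). Both further Col4a4 probes, outside the annotated table, were well above background in 0 and 3 pools and too dim to be tested. Col4a3 was not well above background in either channel of any array.

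**Figure D2:**
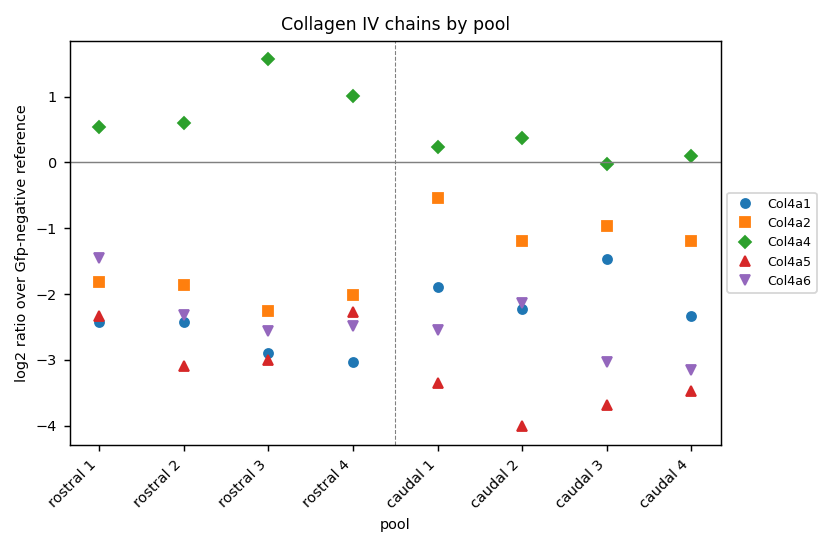
Log2 ratio over the Gfp-negative reference (vertical axis) of the 5 tested collagen IV chains in the 4 rostral pools (left of the dashed line) and the 4 caudal pools (right of it). Col4a1 and Col4a2 sit lower in rostral pools, while Col4a5 sits higher there, between -3.09 and -2.27 against -4.01 to -3.35.

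Collagen IV genes lie in head-to-head pairs. The upstream sequence is shown for Col4a1 with Col4a2 and for Col4a6 with Col4a5. A chain of each of these pairs was called between the parts of the midbrain, as given further on. In the RefSeq promoter windows (GRCm38.p6, 300 bases around a gene's start, found for 38 of 52 members), those of Col4a1 and Col4a2 share 78 bases on opposite strands. A 30-base stretch of that overlap, chr8:11312800-11312829, reads as follows on the plus strand of Col4a2 and the minus strand of Col4a1, with a GC box (GGGCGG or its complement CCGCCC) in capitals.
Col4a2 strand: tcggcagtgcgcGGGCGGcgtctccaaggg
Col4a1 strand: cccttggagacgCCGCCCgcgcactgccga

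The windows of Col4a6 and Col4a5 point away from each other and lie 842 bases apart. The stretches before their outermost starts are chrX:141475169-141475369 on the plus strand for Col4a5 and chrX:141474096-141474326 on the minus strand for Col4a6, with a CCAAT box (CCAAT, or ATTGG on the other strand) in capitals. Neither stretch holds a GC box, and that of Col4a6 holds no CCAAT box.
Col4a5: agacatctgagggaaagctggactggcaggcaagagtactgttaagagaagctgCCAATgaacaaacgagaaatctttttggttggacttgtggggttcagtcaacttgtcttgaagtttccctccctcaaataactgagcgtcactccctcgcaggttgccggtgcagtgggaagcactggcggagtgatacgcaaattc
Col4a6: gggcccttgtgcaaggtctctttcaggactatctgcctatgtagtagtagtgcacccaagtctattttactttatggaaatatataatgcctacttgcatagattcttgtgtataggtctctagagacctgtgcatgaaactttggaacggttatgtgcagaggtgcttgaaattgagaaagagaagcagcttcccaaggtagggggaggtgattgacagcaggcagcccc

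Searched on both strands, the GC box was in a window of 24 of the 38 members and in 35.7% of all 32851 windows of 300 bases. The CCAAT box was in a window of 14 of the 38 members and in 37.4% of all windows. A member counted if any of its windows held the box, so counts of members and shares of windows are unlike measures. A match is a string of letters in the window and not a measured site.

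Among the FACIT collagens, which decorate the surface of fibrils, 9 of 9 were tested, and 6 were lower and 1 higher. Col22a1, a chain known from tissue junctions such as those of muscle and tendon, was at -1.96, -2.57, -2.73 and -1.90 in rostral pools and at -3.43, -3.25, -3.76 and -3.29 in caudal pools. All ratios were at or below -1.90, and the mean was -2.86 (SE 0.10, adjusted p = 6.93e-09), 7.27-fold lower. By the table's probes, Col9a1 (-1.32, SE 0.19) and Col14a1 (-1.31, SE 0.18) were also more than 2-fold lower, the probe of Col9a1 being well above background in 4 of 8 pools. Probes outside the table differed from both. That of Col9a1, detected in all 8 pools and on 3 arrays in the reference, was at 0.14 and did not pass the test (adjusted p = 0.0805), and that of Col14a1, also detected in all pools, was at -0.25 (SE 0.06, adjusted p = 0.00757). Col16a1 (-0.72), Col12a1 (-0.71) and Col9a3 (-0.39) were lower by less than 2-fold, and a brighter Col16a1 probe outside the table was at -1.25. Of the type IX chains, Col9a2 was higher, by 0.60 (SE 0.05, adjusted p = 4.29e-06), and its 8 ratios lay between 0.28 and 1.10. Col19a1 and Col20a1 were at 0.04 and 0.08 and did not pass the test.

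The beaded-filament and anchoring collagens were split. Col7a1, which forms the anchoring fibrils of skin, was higher by 0.69 (SE 0.09, adjusted p = 9.49e-05), and all 8 of its ratios lay between 0.31 and 1.23. Col6a2 was higher by 0.29 (SE 0.06, adjusted p = 0.00246), while its partner in type VI microfibrils, Col6a1, was lower by 1.24 (SE 0.18, adjusted p = 1.84e-04). Col6a1 was above the reference in rostral pool 2 alone (0.14). The reference signal of Col6a2 was well above background on 1 of 8 arrays, so it entered the test through the channel where it is high, and its call was lost within 1 of the 2 slide rows (0.22, adjusted p = 0.0721). Col6a6 was lower (-1.20, SE 0.14), with a sample signal well above background in 2 of 4 rostral and 0 of 4 caudal pools, so that its size is set largely by the background correction. Col6a4 did not pass the test (-0.22, adjusted p = 0.118), and Col28a1 was not tested.

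Of the remaining collagens, Col18a1, whose protein is a basement membrane proteoglycan and carries endostatin at its end, was lower by 2.09 (SE 0.18, adjusted p = 3.6e-06). The short-chain Col8a2 was lower by 0.98 (SE 0.17, adjusted p = 6.17e-04), though a dim probe of it outside the table was at -0.03 (adjusted p = 0.676), and Col8a1 (0.22) and Col10a1 (0.38) did not pass the test. The ratio of Col10a1, the collagen of hypertrophic cartilage, varied widely between pools, from -0.76 to 1.06 in rostral and from -0.21 to 1.54 in caudal pools. The transmembrane chains Col17a1 (-0.85, SE 0.12) and Col25a1 (-1.58, SE 0.25) were lower, with sample signals well above background in 4 and 2 of 8 pools. The chosen probes of Col13a1 and Col15a1 were not well above background in any channel, and that of Col23a1 was too dim to be tested. Outside the table, a Col15a1 probe was well above background in 3 pools and was not tested, and both further Col23a1 probes were lower than the reference, at -0.66 (adjusted p = 5.42e-04) and -0.29 (adjusted p = 0.0115).

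Laminin chains were lower with 1 exception. All 11 were tested, and 10 were lower, 9 of them by 2-fold or more, with a median of -1.82. Lamb2, the beta chain of mature vascular and synaptic basement membranes, was at -2.42, -2.26, -2.80 and -2.65 in rostral pools and at -3.37, -2.26, -2.69 and -1.90 in caudal pools. All 8 pools were at or below -1.90, with a mean of -2.54 (SE 0.15, adjusted p = 1.81e-07), 5.83-fold lower. Lama4, the alpha chain of endothelial basement membranes, was at -1.74, -1.89, -2.68 and -2.18 in rostral pools and at -2.28, -2.62, -2.0 and -3.30 in caudal pools, a mean of -2.34 (SE 0.15, adjusted p = 4.09e-07).

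Of the other alpha chains, Lama2, whose loss causes a muscular dystrophy, was at -2.15 (SE 0.15). A second Lama2 probe outside the annotated table, detected in all 8 pools, was at -2.34 (SE 0.10). Lama5 was at -1.60 (SE 0.08) and Lama1, of the first embryonic basement membranes, at -1.45 (SE 0.10). The widely used chains Lamb1 and Lamc1 were at -2.09 (SE 0.15) and -1.32 (SE 0.07), and Lamc3 was at -1.97 (SE 0.11). Lamb3, a beta chain of the laminin of skin, was at -0.75 (SE 0.15). Lama3, an alpha chain of skin laminin, was the exception and did not pass the test. Its ratios were 0.15, 0.18, 0.44 and 0.89 in rostral pools and 0.47, -0.27, 0.00 and 0.15 in caudal pools, a mean of 0.25 (SE 0.10, adjusted p = 0.0506), with its reference signal not well above background on any array. A second probe of Lama3 outside the annotated table, bright in both channels of all arrays, lay between 0.28 and 0.80 in the 8 pools, a mean of 0.47 (SE 0.07, adjusted p = 2.15e-04 in a fit over all 38022 tested probes, of which 67.6% were called).

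Genes that work with these chains moved unevenly. The counts below stand against 36.8% of all tested genes lower and 34.6% higher. Of 14 tested basement membrane and matrix partners, 12 were lower and 1 higher. Among them were Vtn, the adhesion protein vitronectin (-3.82), which also stands in the pericyte list, Nid1, which links laminin to collagen IV (-3.81), fibronectin Fn1 (-2.70) and Sparc, a collagen-binding secreted protein (-2.63), all with an adjusted p of 2.78e-09 or less. Of 27 genes for collagen synthesis and processing, 14 were lower and 10 higher. Those with the smallest p were all lower. They were the procollagen chaperones Fkbp10 (-3.01) and Serpinh1 (-1.23), the crosslinking oxidase Loxl3 (-3.08) and the procollagen C-proteinase enhancer Pcolce (-2.63). The largest rise was that of Adamts2 (1.73), whose reference signal was well above background on 3 of 8 arrays. Of 13 matrix receptors, 9 were lower and 4 higher. Those with the smallest p were all lower. They were the laminin receptor chains Itga6 (-2.29) and Itga7 (-2.58), the collagen receptor kinase Ddr1 (-0.82) and the collagen receptor chain Itga1 (-1.06). The largest rise was that of Itga11 (2.91). Of 16 matrix proteases and inhibitors, 9 were lower and 6 higher, with Timp4 and Timp3, inhibitors of metalloproteases, at -3.30 and -2.94, the gelatinase Mmp9 at -2.71 and the aggrecanase-related Adamts9 at 2.22. The medians of the 4 lists were -2.14, -0.09, -0.95 and -0.71 in this order.

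Rostral and caudal dopaminergic neurons were then set against each other through the common reference, with a positive difference meaning higher in rostral pools. Of 43 members tested, 3 were higher in rostral pools and 3 in caudal ones at an adjusted p below 0.05. Of the 18193 genes tested, 3.47% were higher in rostral pools, 2.75% in caudal pools and 6.22% in either. A gene entered this test if it was well above background in 4 of the 8 pools, so one detected mainly in 1 part passed through the part where it is high, as Col8a1 did. All 6 were collagens, and none of 11 laminins passed the limma test, with 1 laminin at an unadjusted p below 0.05. The pools of the parts did not overlap in 10 members, against 12.5% of all tested genes. The median difference was 0.12 over members and 0.01 over all genes. Without rostral pool 2, 3 members were higher in rostral pools and 4 in caudal ones.

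**Figure D3:**
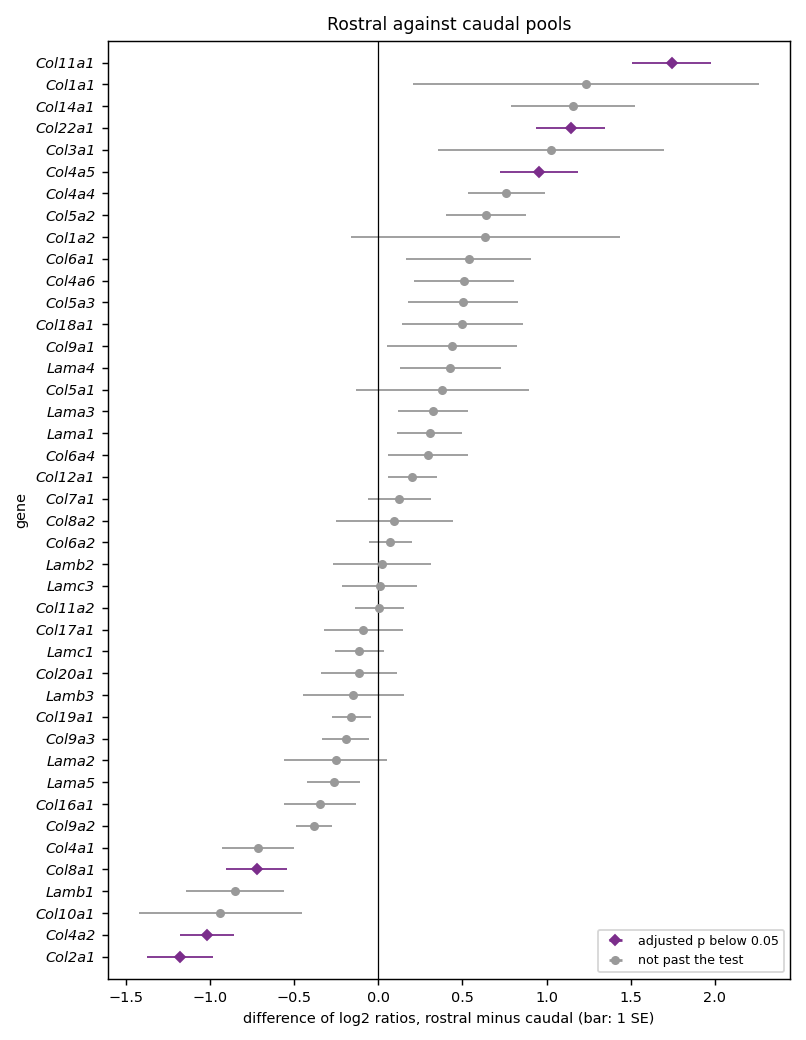
Difference of mean log2 ratios, rostral minus caudal (horizontal axis, bars 1 SE), for the tested members that are named here, in 4 rostral and 4 caudal pools. Diamonds mark the 6 members past an adjusted p of 0.05, from Col11a1 at 1.74 at the top to Col2a1 at -1.18 at the bottom, and the wide bars of Col1a1, Col1a2 and Col3a1 reflect the spread of their rostral pools.

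Col11a1, the minor fibrillar chain that sets the width of type II fibrils, differed the most. It was at 0.49, 1.24, 1.47 and 1.27 in rostral pools 1 to 4, against -0.61, -0.98, -0.69 and -0.23 in caudal pools 1 to 4. Every rostral pool lay above the reference and every caudal pool below it. The difference was 1.74 (SE 0.23, adjusted p = 0.00323), 3.35-fold, and it kept its call without any 1 pool (highest adjusted p 0.0135). The 189 bases before the outermost start of Col11a1, chr3:114030290-114030478 on the plus strand of GRCm38.p6, hold 1 GC box and 1 CCAAT box on the other strand, in capitals.
Col11a1: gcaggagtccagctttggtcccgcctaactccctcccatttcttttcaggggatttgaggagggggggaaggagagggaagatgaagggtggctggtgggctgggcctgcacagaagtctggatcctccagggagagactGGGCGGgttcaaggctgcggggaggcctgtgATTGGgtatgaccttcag

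Col2a1, whose product copolymerises with type XI chains in cartilage, ran in the opposite direction. It was at -2.74, -2.06, -3.06 and -2.63 in rostral pools, against -1.21, -1.60, -1.68 and -1.29 in caudal pools, with no overlap. The difference was -1.18 (SE 0.20, adjusted p = 0.00802), 2.26-fold lower in rostral pools. The other type XI gene, Col11a2, differed by 0.01 (SE 0.15, adjusted p = 0.99), and its rostral pools (0.73 to 1.39) enclosed the caudal ones (0.98 to 1.08).

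Col22a1, low against the reference in both parts, was less so in rostral pools, where it was at -1.96, -2.57, -2.73 and -1.90, against -3.43, -3.25, -3.76 and -3.29 in caudal pools. The groups did not overlap, and the difference was 1.14 (SE 0.21, adjusted p = 0.0116), 2.21-fold. Col14a1, another FACIT collagen, had a difference of the same size with a wider spread (1.16, SE 0.37, adjusted p = 0.11).

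Of the collagen IV chains, Col4a2 and Col4a5 were called, in opposite directions. Col4a2 was at -1.81, -1.87, -2.26 and -2.01 in rostral pools, against -0.54, -1.19, -0.96 and -1.20 in caudal pools, a difference of -1.02 (SE 0.16, adjusted p = 0.00661), 2.02-fold lower in rostral pools. Col4a1, which shares its upstream region, had a difference of -0.71 (SE 0.21, adjusted p = 0.0898), with pools that did not overlap but no call. Col4a5 was at -2.34, -3.09, -3.00 and -2.27 in rostral pools, against -3.35, -4.01, -3.69 and -3.47 in caudal pools, a difference of 0.95 (SE 0.23, adjusted p = 0.0405). Its neighbour Col4a6 had 0.51 (SE 0.30, adjusted p = 0.427) and overlapping pools, with -0.09 (adjusted p = 0.775) by its probe outside the table, which was detected in all pools, and Col4a4 had 0.76 (SE 0.23, adjusted p = 0.0945). The call of Col4a5 was lost without rostral pool 1 or 4 or without any 1 of the caudal pools (adjusted p up to 0.0983), while that of Col4a2 was kept (highest 0.0221).

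Col8a1, a short-chain collagen of vessel walls and of the Descemet membrane of the eye, was at -0.14, 0.31, -0.43 and -0.30 in rostral pools, against 0.89, 0.57, 0.39 and 0.47 in caudal pools. The groups did not overlap, and the difference was -0.72 (SE 0.18, adjusted p = 0.0474), against -2.37 without a call (adjusted p = 0.0683) in the processed signals. The probe was well above background in all 4 caudal pools but in only 1 of 4 rostral pools, and on no array in the reference. Its call was lost without any 1 pool other than rostral pool 2 (adjusted p up to 0.12), while Col11a1, Col22a1, Col2a1 and Col4a2 kept theirs without each pool in turn.

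All arrays lay on 1 slide in 2 rows, each with 2 pools of each part. In the 6 called members the pools of the parts did not overlap, so the sign was bound to be the same within both rows. The rows therefore add only the size of each difference: Col11a1 was at 1.66 and 1.83, Col22a1 at 1.07 and 1.21, Col4a5 at 0.96 and 0.95. Col2a1 was at -0.99 and -1.36, Col4a2 at -0.98 and -1.05, and Col8a1 at -0.64 and -0.80. With 2 pools a part in a row, only Col11a1 in row 2 passed the test (adjusted p = 0.0454).

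Among the laminins, Lamb1 was at -3.15, -1.61, -2.43 and -2.86 in rostral pools, against -1.44, -1.68, -2.01 and -1.53 in caudal pools. Rostral pool 2 fell among the caudal values and the other rostral pools lay below them all. The difference was -0.85 (SE 0.29, adjusted p = 0.136), and without rostral pool 2 it was -1.15 and passed the test (adjusted p = 0.0135). For Col5a1, leaving out rostral pool 3, its lowest value, moved the difference from 0.38 (SE 0.52) to 0.99 with an adjusted p of 0.0279.

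In the lists of partner genes, 2 of 11 receptors, 3 of 27 synthesis and processing genes, 1 of 14 matrix partners and 3 of 16 proteases and inhibitors were called between the parts, where 6.22% of all tested genes were. The receptor kinase Ddr1 was at -1.25, -1.30, -1.34 and -1.16 in rostral pools, against -0.23, -0.40, -0.46 and -0.42 in caudal pools, a difference of -0.89 (SE 0.07, adjusted p = 4.28e-04). Itga11, the integrin chain that binds fibrillar collagen, was above the reference in all pools and higher in caudal ones, with 2.58, 2.60, 0.21 and 2.19 in rostral pools, against 4.02, 3.83, 3.82 and 4.01 in caudal pools, a difference of -2.03 (SE 0.46, adjusted p = 0.0303). Both were lower in rostral pools. Among the synthesis and processing genes, Adamts14, a procollagen N-proteinase, was higher in rostral pools by 0.84 (adjusted p = 0.00708), and Bmp1, the procollagen C-proteinase, and P4ha1, a prolyl hydroxylase subunit, were lower (-0.51 and -0.56). The called matrix partner, Agrn, which encodes the heparan sulfate proteoglycan agrin, was lower in rostral pools (-0.26). Of the proteases, Adamts9 was higher by 0.84, and the membrane-bound metalloproteases Mmp17 and Mmp15 were lower (-1.03 and -0.69). Markers of other cell types differed between the parts for single genes. Of 9 meningeal genes Foxd1 was higher in rostral pools (1.10, adjusted p = 0.013), and of 10 radial glia genes Ptprz1 was higher (1.01, adjusted p = 0.00628) and Vim lower (-0.63, adjusted p = 0.0119). Of 9 endothelial and 9 pericyte genes 0 passed the limma test, with 1 and 2 at an unadjusted p below 0.05, among them the pericyte receptor Pdgfrb (1.08, unadjusted p = 0.00521). The summed signals were 6536 to 11321 for endothelial, 9152 to 12201 for pericyte, 20487 to 29533 for meningeal and 67805 to 78821 for radial glia genes in rostral pools. In caudal pools they were 7691 to 10411, 6921 to 9581, 26363 to 33197 and 68940 to 82852 in the same order, so that each of these lists overlapped. The dopaminergic list did not overlap, with sums of 1594587 to 1727607 in rostral and 1836462 to 2012756 in caudal pools. Of its 12 genes, 3 were called, all lower in rostral pools (En1, En2 and Slc18a2). The part of any of these cell types in the differences between rostral and caudal pools was not tested.

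Col25a1, the transmembrane collagen of neurons first known from amyloid plaques, gave different values with different probes. Its brightest probe in the table was at -2.13, -2.11, -0.76 and 0.37 in rostral pools and at -1.98, -2.11, -1.89 and -2.04 in caudal pools. Rostral pools 3 and 4 stood above the other 6. This probe averaged -1.58 (SE 0.25, adjusted p = 2.53e-04), exceeded background well in 2 of 4 rostral pools but in 0 of 4 caudal pools, and was too dim to be tested between the parts. In the sample channel its normalised log2 level was 6.46, 6.57, 8.1 and 8.95 in rostral pools 1 to 4 and 6.36 to 6.65 in caudal pools. A higher level was thus seen in rostral pools 3 and 4 only.

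A further Col25a1 probe, outside the table and named by its accession, was the brightest of the gene and was well above background in both channels of all arrays. It was at 1.19, 1.31, 2.20 and 1.48 in rostral pools, against -2.17, -0.91, 0.09 and -0.64 in caudal pools. All rostral pools lay above the reference and above every caudal pool. The difference was 2.45 (SE 0.43, adjusted p = 0.0184), 5.47-fold, in a fit over 36976 probes of which 3.34% were called, and it was larger than that of any probe the rule chose. By this probe Col25a1 did not pass the test against the reference over both parts (0.32, adjusted p = 0.217), against -1.58 by the table's brightest probe. The other table probe was at 0.32 to 0.53 in rostral pools and at 0.12 to 0.32 in caudal pools, a difference of 0.23 (adjusted p = 0.333), and the remaining probe was not well above background in any pool. Why the probes differ was not tested.

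**Figure D4:**
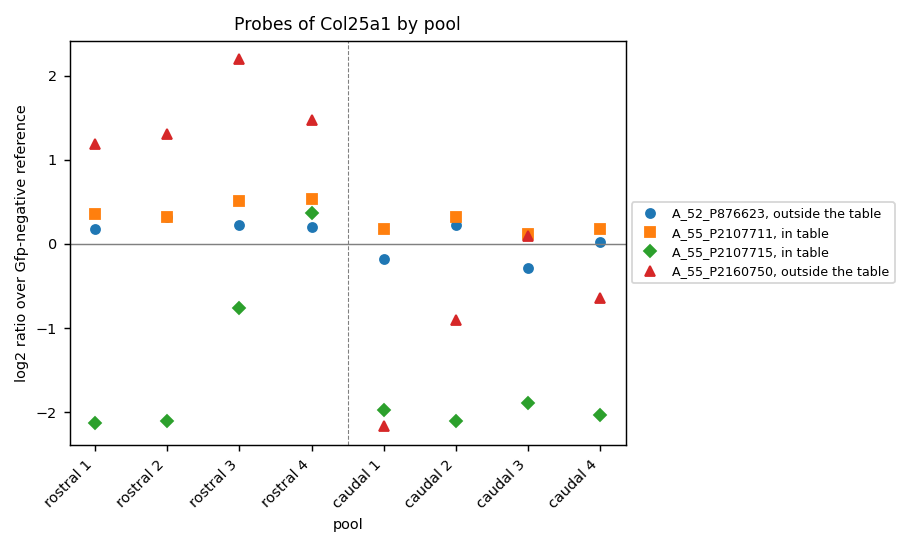
Log2 ratio over the Gfp-negative reference (vertical axis) for the 4 Col25a1 probes in the 4 rostral pools (left of the dashed line) and the 4 caudal pools (right of it). The brightest probe (triangles) runs from 1.19 to 2.20 in rostral pools and from -2.17 to 0.09 in caudal pools, while circles and squares lie between -0.29 and 0.53 in all pools.

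Rostral pool 2 held more of a group of collagens than any other pool. Col1a1, the main chain of type I collagen, was at 3.73 there, against -1.95, -0.93 and -1.13 in the other rostral pools and -1.37, -1.24, -1.20 and -1.41 in caudal pools. The gap to the next pool was 25.2-fold. In the sample channel its normalised log2 level was 12.19 in this pool and 6.30 to 7.30 in the others, while the reference channel stayed between 7.98 and 8.47. For Col1a2 the gap was 8.40-fold, for Col3a1 5.82-fold, for Col9a1 3.0-fold and for Col6a1 2.13-fold. In the whole table, 27 of 18604 genes (0.145%) were highest in this pool by at least 2-fold, and 5 of the 45 members were among them. By the same measure, each of the other pools held 5 to 25 such genes, with 25 in rostral pool 1. Members among them were 2 in rostral pool 4 and 0 in each of the rest. The array of rostral pool 2 also had the largest share of probes well above background, 70.4% in the sample and 63.5% in the reference channel.

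The 3 genes with the widest gaps were Col1a1, Col1a2 and Col3a1. The fourth was Col6a3, a type VI chain that is not in the annotated table and so is no member, at 0.05 in this pool and -3.05 to -2.20 in the others. Serpinf1 (-0.05 against -2.01 to -1.27), a collagen-binding secreted protein, and Dcn, the fibril-binding proteoglycan decorin (0.31 against -1.83 to -0.77), were also among the 27. Lum, a related proteoglycan, was well above background only in rostral pool 2, at 2.60 there and -0.25 to 0.11 in the others. Dcn and Lum stand in the meningeal fibroblast list. Of its 9 tested genes, 2 were highest in this pool, Dcn and the fibroblast receptor gene Pdgfra (-2.90, against -4.60 to -3.16 in the others). The list's summed signal there was 20487, against 22801 to 29533 in the other rostral pools. The pericyte list summed to 11039 there (9152 to 12201 in the other rostral pools) and the endothelial list to 8350 (6536 to 11321). Whether cells of another type entered this pool was not tested.

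Laminin and collagen IV chains did not peak in this pool. Lama4, Lamb2, Col4a1 and Col4a2 were at -1.89, -2.26, -2.43 and -1.87 there, each below its highest pool. Without this pool Col1a1 was lower in the Gfp-positive cells (-1.32, SE 0.12, adjusted p = 1.46e-05), where with it the ratio was -0.69 (SE 0.51, adjusted p = 0.252). Its sample signal was detected well above background in 3 rostral pools and 1 caudal pool. The difference between the parts for Col1a1 was 1.24 (SE 1.03) with the pool and -0.03 (SE 0.24) without it. For Col3a1 it was 1.03 (SE 0.67) with and 0.26 (SE 0.31) without it.

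**Figure D5:**
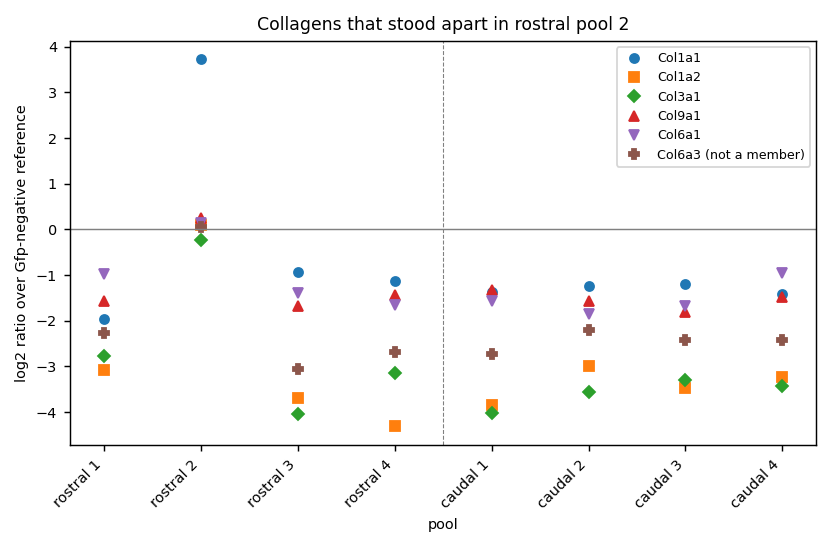
Log2 ratio over the Gfp-negative reference (vertical axis) for the 5 member collagens highest in rostral pool 2 by at least 2-fold, and for Col6a3, in the 4 rostral pools (left of the dashed line) and the 4 caudal pools (right of it). In rostral pool 2 Col1a1 reaches 3.73 and the others lie between -0.24 and 0.26, above all their other pools.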

How the data were processed

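Each of 8 pools was measured on 1 array of 62976 spots. Per the file headers, Agilent Feature Extraction (version 10.7.3.1) produced the deposited spot intensities, which are not normalised. The submitters' processing notes also list RMA, without saying where it was used. Of the series' annotated table only the probe annotation was taken, because its 8 value columns carry names that match no sample. Groups came from the labels.

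In R 4.3.3 with limma 3.58.1 and data.table (version 1.17.8), median spot intensities were background-corrected (normexp, offset 50) and normalised by loess within arrays, with control and outlier spots at weight 0, and spots of a probe were averaged without outlier spots. Log2 ratios of Cy3 over Cy5, computed here from the deposited intensities, were fitted on 1 probe a gene over all genes (lmFit, eBayes with an intensity trend, 2-sided), with Benjamini-Hochberg adjustment over all tested genes and a threshold of 0.05. A gene was tested if well above background on at least 4 of 8 arrays, in either channel against the reference and in the sample channel between the parts. The fit was tested on simulated data. The array number limits the precision.

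Members called at 2-fold or more were named with values per pool, at most 10 in each direction, as was each member called between the parts and, with their other probes, those whose probes disagree in call or sign, with up to 4 genes a list by p. One member enters the counts but is not reported here by name. Members, classes and lists were chosen with earlier results of these data known. Alternatives changed the background correction, normalisation, probe filter, probe choice, slide row, replicate block and pools. Promoter windows are RefSeq's, and probes outside the table were named by accession through RefSeq (GRCm38.p6).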

Additional observations from a re-analysis of the deposited data

Results flagged for a closer look

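In 5 of 90 groups of 4 pools, 1 pool lay far from the other 3 (Dixon's criterion, gap over range above 0.829), and chance flags about 1 group in 20. Col5a1 was at -4.74 in rostral pool 3, against -2.49 to -2.14 in the other rostral pools, and Lama5 at -2.13 in the same pool, against -1.62 to -1.58. Col9a1 was at 0.26 and Col6a4 at 0.70 in rostral pool 2, against -1.67 to -1.44 and -0.38 to -0.30 in the other rostral pools. Col7a1 was at 0.31 in caudal pool 2, against 0.72 to 0.77 in the other caudal pools. Col1a1 in rostral pool 2 was not among the 5, its gap over the range of the rostral pools being below that value.

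The 6 members whose ratio differed between the parts, by the test of the difference itself, were Col11a1 (1.74), Col22a1 (1.14), Col4a5 (0.95), Col8a1 (-0.72), Col4a2 (-1.02) and Col2a1 (-1.18), rostral minus caudal. A signal outside the annotated table was the brightest Col25a1 probe, with a difference of 2.45.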

How the results depend on the processing

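Over the alternatives, 780 of 802 comparisons of a member with the reference kept direction and side of the threshold, 20 came to pass it, 1 fell short and 1 turned; between the parts 728 of 760 did, 30 fell short and 2 came to pass. The turned value is Col25a1 against the reference, 0.32 with the brightest probe of the whole array. The members' median against the reference was -1.89 with the scanner software's processed signals and -1.58 with only genes above background on all 8 arrays, which tests fewer dim genes. Leaving out 1 pool gave 5 to 7 members higher, 32 to 34 lower and a median of -1.41 to -1.24 against the reference, and 2 to 4 higher in each part with a median of 0.01 to 0.21 between the parts. Within slide row 1, which holds fewer samples, 0 and 0 members were called between the parts (limma; 0 genes in all, 2388 at an unadjusted p below 0.05); within row 2, 1 and 0 were, with a median of -0.12. Col8a1 also lost its call in the processed signals (-2.37, adjusted p = 0.0683), as Col4a5 did with slide row as a block (0.0601), and both with no filter on dim probes. Centring on the median in place of loess moved the median of all genes against the reference to 0.13, with 8451 genes higher and 5279 lower in place of 6459 and 6874. The within-row fits and the probes outside the table were chosen after seeing the data. With replicate number as a block, 6 members were higher and 32 lower than the reference. Between the parts 3 and 2 were called, Col8a1 losing its call (0.0654), with 405 and 315 of all genes in place of 631 and 500. The deviations of same-numbered pools from their group means correlated at -0.063 to 0.019, and no rostral pool correlated best with its own number. Such correlations cannot show whether same-numbered pools came from the same embryos, and the labels state no pairing. Dim reference signals limit the size of the ratios of Col11a2, Col8a1, Lama3 and Col6a2, and dim sample signals that of Col25a1, Col6a6, Col17a1, Col9a1, Col1a1 and Col4a6.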
